A study of Rattus norvegicus with 6 samples.

Results

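The genes of the constitutive proteasome, its regulatory particles and its assembly factors were taken from the rat liver table by symbol, as all rows whose symbol starts with Psma to Psmg and a number, without the immunoproteasome genes Psmb8, Psmb9 and Psmb10. This gave 44 rows of 19616 genes. One of them, Psmc3ip, carries a matching symbol but encodes a protein of meiotic recombination that is not part of the proteasome, so 43 proteasome genes were followed. To enter the test a gene needed 0.1 FPKM or more on average, which 42 of these reached, as did 14864 genes in all. The exception was Psma8, the testis form of an alpha subunit, which was listed at 0, 0 and 0.04 FPKM in the CL rats and at 0.05, 0 and 0.24 FPKM in the FL rats. Psmb11, the thymus form of a beta subunit, and the activator gene Psme3 were not analysed here.

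RNA was sequenced from the livers of 6 male Sprague-Dawley rats, with 1 library per rat after removal of ribosomal RNA. The FL group (fibrotic liver, rats 2, 5 and 12) was injected intraperitoneally for 5 weeks, 2 times in each, with 2 mL/kg of a mixture of olive oil and CCl4 (carbon tetrachloride, which is toxic to hepatocytes). Rats 5, 6 and 7 of the CL group (control liver) received the same volume of olive oil. Levels are in FPKM, a count of fragments scaled to the length of the transcript and to the mapped fragments of the library, so that levels can be compared between genes per length. The model is limited to 1 toxin and 1 time point, and whole tissue was used, in which all liver cells contribute RNA.

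The proteasome is the main protease of the cytosol and nucleus. Its 20S core is a barrel of outer alpha rings, which gate the entrance, and inner beta rings, which hold the cutting sites. The 19S particle caps the barrel, binds ubiquitin-tagged proteins through its base and lid, removes the ubiquitin and unfolds the substrate with a ring of ATPases, while other caps such as PA28 and PA200 open the core without ubiquitin. In hepatocytes, which make large amounts of protein, the particle also clears damaged proteins, and inflammation can replace the catalytic beta subunits by the inducible forms of the immunoproteasome.

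No proteasome gene passed the threshold between the groups, an adjusted p under 0.05 in limma, neither higher (0 of 42, against 16.9% of all genes tested) nor lower in the FL group (0 of 42, against 1.94%). With median scaling 0 were called higher and 1 lower (Psmd11), against 8.75% and 3.59% of all genes, and with quantile normalization 0 and 2 (Psmd10 and Psmd11), against 5.23% and 3.61%. With the further limit of at least 2-fold, the counts were 0 and 0, against 9.29% and 0.935% of all genes. At an unadjusted p under 0.05 there were 4 of 42, Psma4, Psma7, Psmd11 and Psmg3, whereas 35.5% of all genes reached it. The 95% interval of the difference lay within 2-fold in either direction for 41 of the 42 genes (97.6%), the exception being Psmg3, and for 54.3% of all genes. The median standard error of the log2 difference was 0.14 for the proteasome genes, which are among the better expressed ones, and 0.21 for all genes. The median level of the 42 genes was 18.9 FPKM, against 2.83 FPKM for all genes.

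The log2 difference between FL and CL livers, on the log2(FPKM + 0.1) scale, had a median of 0.02 over the 42 proteasome genes, with 23 above 0 and 19 below (6 and 36 after median scaling of the rats, 8 and 34 after quantile normalization). Over all genes tested the median was 0.29, so the proteasome genes stood at -0.27 relative to it. This general shift depends on the scaling. The 2 medians were -0.20 and 0.08 after median scaling of the rats and -0.14 and -0.04 after quantile normalization, so that the direction of the proteasome genes taken alone flips while they stay below the median of all genes, by -0.28 and -0.10. Among the 3036 genes averaging 10 FPKM or more, a limit chosen after the data were seen, the 32 proteasome genes had a median of 0.04 and all genes one of 0.12, a distance of -0.08. In that range 12.2% of all genes were called higher and 4.51% lower.

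**Figure D1:**
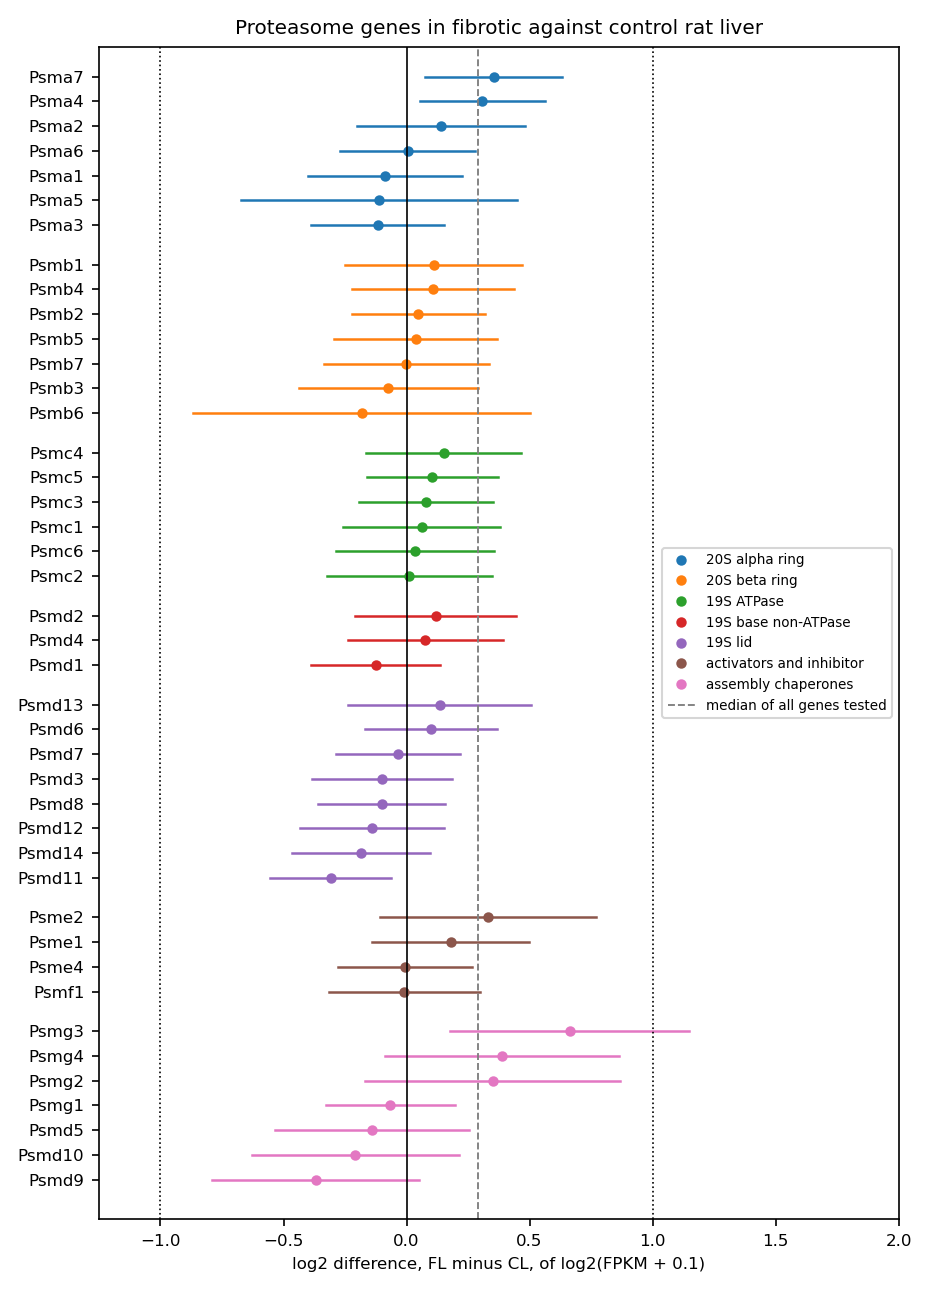
Log2 difference of FL minus CL for the 42 proteasome genes tested (points), grouped and coloured by role, with 95% intervals of limma (lines). The dashed line is the median of all genes tested (0.29), which falls to 0.08 with median scaling and -0.04 with quantile normalization, and the dotted lines mark 2-fold. The interval of Psmg3 is the one that passes a dotted line.

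Summed over the 42 tested genes, the proteasome genes reached 885, 897 and 738 FPKM in CL rats 5, 6 and 7, and 868, 871 and 861 FPKM in FL rats 2, 5 and 12. The FL rats lay close together, between the values of CL7 and CL5, and the groups overlapped. The mean sums of the CL and FL groups were 840 ± 88.7 and 867 ± 5.30 FPKM (SD, n = 3), a ratio of 1.03. CL7 stood apart from the other control rats, as the lowest CL rat in 36 of the 42 genes and the lowest of all 6 rats in 24. It was also the lowest CL rat for 43.5% of all genes tested. Without CL7 the median log2 difference of the proteasome genes was -0.07, with 14 above 0 and 28 below, against 0.27 for all genes.

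The alpha ring was represented by 7 tested genes, with a median level of 25.5 FPKM and a median log2 difference of 0.00 (-0.22 and -0.13 with median scaling and quantile normalization, and from -0.09 without CL7 to 0.15 without CL5 when 1 rat is left out). Psma4 (ENSRNOG00000013493, chromosome 8), which encodes alpha 3 of the ring and was its most abundant transcript, read 39.0, 34.6 and 34.3 FPKM in CL rats and 46.0, 42.0 and 45.5 FPKM in FL rats. All FL rats were above all CL rats. The log2 difference was 0.31 (standard error 0.11), and the adjusted p of 0.0885 in limma missed the threshold. With median scaling and quantile normalization the difference was 0.08 and 0.22. Psma7 (ENSRNOG00000056853, chromosome 3), the alpha 4 subunit, read 15.9, 13.7 and 12.8 FPKM in CL livers and 19.1, 18.2 and 17.0 FPKM in FL livers. Here too the groups were apart, with a log2 difference of 0.35 (standard error 0.12, adjusted p = 0.0779), or 0.13 and 0.18 with the 2 scalings. Both unscaled values lie near the median of all genes, and the groups overlapped for both with median scaling.

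Psma3, the alpha 7 subunit and the least abundant tested gene of the ring, had a difference of the opposite sign, with 6.78, 6.79 and 6.67 FPKM in the CL rats and 5.67, 6.36 and 6.66 FPKM in the FL rats. The groups did not overlap, but FL12 and CL7 were nearly equal, and the log2 difference was -0.12 (95% interval -0.39 to 0.15). It was about 3 times as large with median scaling (-0.34, adjusted p = 0.0689) and with quantile normalization (-0.40, adjusted p = 0.0506). The remaining alpha genes Psma1, Psma2, Psma5 and Psma6 had mean levels between 11.1 and 30.5 FPKM, and the groups overlapped in each. Across the ring the highest and lowest mean levels were 40.2 and 6.49 FPKM, although the assembled core holds the alpha subunits in equal numbers.

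The beta ring had 7 tested genes, with a median log2 difference of 0.04 (-0.19 and -0.11 with the 2 scalings, -0.09 without CL7 and 0.11 without CL6), and the groups overlapped in all 7. Psmb1, a non-catalytic subunit and the most abundant beta transcript, read 43.2, 43.9 and 30.7 FPKM in CL rats against 40.5, 44.2 and 40.9 FPKM in FL rats. CL7 was low and the other 5 rats lay within 40.5 to 44.2 FPKM. The log2 difference was 0.11 (95% interval -0.25 to 0.47) and fell to -0.11 with median scaling or 0.02 after quantile normalization. The further non-catalytic subunits Psmb2, Psmb3 and Psmb4 averaged 26.4, 21.2 and 26.7 FPKM.

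Cleavage is carried out by 3 of the beta subunits. Psmb5, which encodes beta 5 with the chymotrypsin-like site and was named after its values were seen, read 22.5, 23.9 and 17.6 FPKM in CL rats and 23.4, 19.8 and 22.2 FPKM in FL rats. Psmb7, named in the same way, encodes beta 2 with the trypsin-like site and read 10.8, 12.3 and 8.76 FPKM in CL livers and 11.0, 10.8 and 9.78 FPKM in FL livers. Their log2 differences were 0.04 (95% interval -0.29 to 0.37) and 0.00 (-0.34 to 0.33), the former turning to -0.19 with median scaling and -0.11 with quantile normalization and the latter to -0.22 and -0.23. For both genes CL7 was the lowest rat and the rest overlapped.

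Psmb6, encoding beta 1 with the caspase-like site, was the lowest of the tested core genes at 2.61, 2.06 and 1.15 FPKM in CL rats and 1.81, 1.31 and 1.76 FPKM in FL rats. The FL rats lay inside the range of the CL rats, and the log2 difference of -0.18 had a wide interval (-0.87 to 0.50) and was -0.39 with median scaling and -0.65 with quantile normalization. Genes with near-identical copies are uncertain here, since the authors used uniquely mapped reads. RefSeq lists 48 further loci named as copies of 18 of the tested proteasome genes, 10 of them for Psmb3, 5 for Psma6 and 3 for Psmb6. The part of the copies in the levels was not tested.

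The 6 ATPases of the 19S base, which unfold the substrate and open the gate of the core, had log2 differences between 0.01 and 0.15 with a median of 0.07, and all 6 turned negative with median scaling (median -0.15) and 5 with quantile normalization (median -0.08). Without CL7 the median of the ATPases was -0.01, with 2 of 6 above 0, and without CL5 0.12. Psmc3, the most abundant of them, read 38.9, 38.6 and 32.4 FPKM in CL rats and 38.8, 36.5 and 40.3 FPKM in FL rats. CL7 was the low rat and the others lay within 36.5 to 40.3 FPKM, giving a log2 difference of 0.08 (95% interval -0.20 to 0.35), which was -0.15 with median scaling and -0.03 with quantile normalization. Psmc4 had the largest difference, with 23.1, 24.3 and 18.3 FPKM in CL livers and 25.7, 24.3 and 22.5 FPKM in FL livers.

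For Psmc4 the groups overlapped and the log2 difference was 0.15 (95% interval -0.16 to 0.46), against -0.07 with median scaling and 0.01 with quantile normalization. Psmc2 had the smallest, reading 17.0, 16.1 and 12.1 FPKM in CL rats and 14.7, 15 and 15.4 FPKM in FL rats. The FL values lay between those of CL7 and the other CL rats, with a log2 difference of 0.01 (-0.32 to 0.35) that was -0.21 with median scaling and -0.16 with quantile normalization. Psmc1, Psmc5 and Psmc6 had overlapping groups as well, at mean levels of 28.5, 10.8 and 12.6 FPKM.

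In the base without ATPase activity, Psmd1 and Psmd2 encode the large scaffolds that dock ubiquitin receptors and shuttles, and Psmd4 encodes a ubiquitin receptor. Psmd1 read 39.2, 36.5 and 32.6 FPKM in CL rats and 31.7, 33.0 and 34.4 FPKM in FL rats. Its groups overlapped through CL7 alone, and the log2 difference was -0.12 (95% interval -0.39 to 0.14), against -0.35 with median scaling (adjusted p = 0.0614) and -0.23 with quantile normalization. Psmd2 read 25.4, 23.6 and 18.9 FPKM in CL livers and 23.7, 26.9 and 22.8 FPKM in FL livers. Again CL7 was the low rat, and the difference of 0.12 (-0.21 to 0.44) was -0.11 with median scaling and -0.03 with quantile normalization. Psmd4 averaged 12.2 FPKM with overlapping groups.

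The lid, which removes ubiquitin chains before degradation, had the lowest median log2 difference of the roles, except with quantile normalization, where the assembly chaperones were lower (-0.25). The median of its 8 genes was -0.10, or -0.39 relative to all genes, and 6 were below 0. With median scaling and with quantile normalization all 8 were below 0 (medians -0.33 and -0.21), and with 1 rat left out the lid median ran from -0.18 (without CL7) to -0.04 (without CL6). Psmd11 (ENSRNOG00000005538, chromosome 10), a scaffold subunit of the lid, read 22.4, 24.5 and 22.1 FPKM in CL rats and 18.6, 19.6 and 17.5 FPKM in FL rats. Every FL rat lay below every CL rat, and CL7 was here close to CL5.

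The log2 difference of Psmd11 was -0.31 (standard error 0.11, 95% interval -0.56 to -0.06), with an adjusted p of 0.0810 in limma. It passed the threshold with median scaling (-0.53, adjusted p = 0.0184) and with quantile normalization (-0.45, adjusted p = 0.0352), and over all alternatives its adjusted p ranged from 0.0184 to 0.218. Psmd14, the deubiquitinating enzyme of the lid, was named after its values were seen because its groups also did not overlap. It read 10.9, 9.26 and 8.89 FPKM in CL rats and 8.45, 8.80 and 8.17 FPKM in FL rats, a log2 difference of -0.19 (95% interval -0.47 to 0.09), which was -0.41 with median scaling (adjusted p = 0.0614) and -0.42 with quantile normalization (adjusted p = 0.0636).

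Psmd8, the most abundant lid transcript, read 46.4, 47.3 and 41.7 FPKM in CL livers and 41.2, 44.8 and 40.0 FPKM in FL livers. The groups overlapped, with a log2 difference of -0.10 (95% interval -0.36 to 0.16), against -0.33 with median scaling (adjusted p = 0.0835) and -0.19 with quantile normalization. Psmd13 had the largest positive difference of the lid, 0.14 (-0.24 to 0.51), from 9.32, 7.69 and 6.24 FPKM in CL rats to 7.75, 8.66 and 8.86 FPKM in FL rats, and it was -0.09 with median scaling and -0.12 with quantile normalization. The other lid genes, Psmd3, Psmd6, Psmd7 and Psmd12, had overlapping groups in the unscaled values and mean levels from 11.3 to 26.6 FPKM.

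Across the 42 genes, all FL rats were above all CL rats for 3 (Psma4, Psma7 and Psmg3), against 35.7% of all genes tested, and below them for 3 (Psma3, Psmd11 and Psmd14), against 4.78%. With median scaling the counts were 1 above (Psmg3) and 14 below, and those of all genes became 22.4% and 12%. The 14 were Psma1, Psma3 and Psma6 of the alpha ring, Psmd1 of the base, the lid genes Psmd3, Psmd7, Psmd8, Psmd11, Psmd12 and Psmd14, and the chaperones Psmd5, Psmd9, Psmd10 and Psmg1. As a comparison of cap and core, the summed level of the 19S base and lid divided by that of the 20S core was 1.17, 1.21 and 1.26 in the CL rats and 1.09, 1.12 and 1.19 in the FL rats. FL12 lay above CL5, so the groups overlapped, and this ratio within each rat does not depend on the scaling by a factor. The sums by role were 150 ± 19 and 161 ± 5.48 FPKM for the alpha ring, 147 ± 20.6 and 151 ± 7.39 FPKM for the beta ring, and 124 ± 14.5 and 131 ± 4.87 FPKM for the ATPases (CL and FL, SD, n = 3). For the lid they were 164 ± 12.6 and 153 ± 2.61 FPKM.

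The 4 activator and inhibitor genes had a median log2 difference of 0.09 (-0.14 and 0.02 with the 2 scalings, 0.05 without CL7 and 0.16 without CL6). Psme1 and Psme2 encode the alpha and beta subunits of PA28, a cap that is induced by interferon and favours peptides for antigen presentation. Psme1 was the most abundant of all proteasome genes, with 71.9, 87.7 and 65.8 FPKM in the CL rats and 82.5, 87.4 and 83.6 FPKM in the FL rats. CL6 was as high as the FL rats. The log2 difference was 0.18 (95% interval -0.14 to 0.50), against -0.05 with median scaling and 0.19 with quantile normalization.

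Psme2, like Psme1 highest in CL6 and then FL5, read 24.7, 39.9 and 24.7 FPKM in CL livers and 36.8, 38.0 and 34.9 FPKM in FL livers. The other 2 CL rats were below all FL rats. The log2 difference was 0.33 (95% interval -0.11 to 0.77, adjusted p = 0.247), or 0.11 with median scaling and 0.22 with quantile normalization. Without CL6 it was 0.56 with an adjusted p of 0.0395, so the side of the threshold depends on that control rat, and over the alternatives the adjusted p ranged from 0.0395 to 0.743. PA28 genes per core, as the summed level of Psme1 and Psme2 over that of the 20S genes, came to 0.298, 0.409 and 0.356 in the CL rats and 0.369, 0.399 and 0.397 in the FL rats, with CL6 above all others.

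Psme4, which encodes the activator PA200, read 18.3, 16.4 and 18.3 FPKM in CL rats and 15.9, 17.7 and 19.3 FPKM in FL rats. Psmf1 encodes PI31, a protein known as an inhibitor of the core, and read 21.9, 21.1 and 18.0 FPKM in control and 19, 18.6 and 23.0 FPKM in fibrotic livers. For both genes the groups overlapped widely, and the log2 differences were -0.01 (95% interval -0.28 to 0.27) and -0.01 (-0.32 to 0.30). After median scaling these read -0.23 for both, and after quantile normalization -0.17 and -0.15.

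The 7 assembly chaperones, which put the rings and the base together and leave the finished particle, had the lowest levels of the roles and the widest range of differences. Their median level was 5.07 FPKM and their log2 differences ran from -0.37 to 0.66, with a median of -0.07 (-0.29 and -0.25 with the 2 scalings, -0.13 without CL7 and 0.02 without FL2). Psmg3 (ENSRNOG00000001273, chromosome 12), a chaperone of the alpha ring, read 2.33, 2.43 and 2.19 FPKM in CL rats and 2.72, 4.0 and 4.73 FPKM in FL rats. All FL rats were above the CL rats, FL2 by the least.

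Psmg3 had the largest difference of the 42 genes in the unscaled values, 0.66 (standard error 0.21, 95% interval 0.18 to 1.15), or 1.58-fold, with an adjusted p of 0.0625 in limma. With median scaling and quantile normalization it was 0.45 and 0.29, smaller in size than the differences of Psmd9 and Psmd11. It passed the threshold without FL2 (0.88, adjusted p = 0.0108), and its adjusted p ranged from 0.0108 to 0.336 over the alternatives. At the other end, Psmd9, a chaperone of the ATPases, read 7.11, 4.91 and 5.20 FPKM in CL livers and 3.98, 5.17 and 4.03 FPKM in FL livers. FL5 lay among the CL rats, and the log2 difference of -0.37 (95% interval -0.79 to 0.05) had an adjusted p of 0.186. It was larger with median scaling (-0.59, adjusted p = 0.0720) and with quantile normalization (-0.68, adjusted p = 0.0572), and still missed the threshold.

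Psmg1, which pairs with Psmg2 to start the alpha ring, was the most abundant chaperone gene with 15, 15.1 and 13.2 FPKM in the CL rats and 14.8, 13 and 13.5 FPKM in the FL rats. The groups overlapped, with a log2 difference of -0.07 (95% interval -0.33 to 0.20), against -0.29 with median scaling and -0.25 with quantile normalization. Psmg2 and Psmd10 were named after their values were seen, since each was called under 1 alternative. Psmg2 read 2.45, 2.42 and 2.55 FPKM in CL rats and 2.20, 3.70 and 3.93 FPKM in FL rats, and was called higher without FL2 (adjusted p = 0.0244, range over the alternatives 0.0244 to 0.938), while its log2 difference of 0.35 was 0.13 with median scaling and -0.03 with quantile normalization. Psmd10, another chaperone of the ATPases, read 2.80, 3.01 and 2.54 FPKM in CL livers and 1.90, 2.64 and 2.72 FPKM in FL livers. Its log2 difference of -0.21 (adjusted p = 0.440 in limma) was -0.42 with median scaling. With quantile normalization the difference was -0.61 and Psmd10 was called lower (adjusted p = 0.0386, range 0.0386 to 0.828). The chaperone genes Psmg4 and Psmd5 averaged 6.56 and 7.03 FPKM with overlapping groups.

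The inducible catalytic genes are not constitutive subunits and are given as their partners. Psmb10 (beta 2i) rose, with a log2 difference of 1.14 (adjusted p = 0.00690), Psmb9 (beta 1i) rose by 0.73 (adjusted p = 0.0344), and Psmb8 (beta 5i) had 0.65 (adjusted p = 0.0950), all in limma. The call of Psmb10 held under all alternatives that test it, which the filter of 10 FPKM does not (adjusted p 0.00518 to 0.0372), while that of Psmb9 was lost with median scaling (0.51), with quantile normalization (0.48) and without any 1 rat but CL6 (range 0.0292 to 0.142). Leaving out 1 rat gave Psmb9 differences from 0.54 (without CL5) to 0.90 (without CL6). Psmb8 was called without CL6 (adjusted p = 0.0387) and had 0.43 with median scaling and 0.25 with quantile normalization. Set against their constitutive partners within each rat, which no scaling by a factor changes, the ratio of Psmb10 to Psmb7 was 0.489, 0.369 and 0.535 in the CL rats and 1.15, 0.760 and 1.22 in the FL rats. The groups were apart, at 2.23-fold with an exact two-sided permutation p of 0.1, the smallest that 3 against 3 rats can give. The ratio of Psmb8 to Psmb5 was 1.56-fold higher in FL livers (exact permutation p = 0.1) and that of Psmb9 to Psmb6 1.91-fold higher with overlapping groups (exact permutation p = 0.3). The log2 difference of the Psmb9 over Psmb6 ratio, 0.93, was 0.48 without CL5 and 1.30 without CL7. Adjusted over these 3 pairs, which were chosen after the values were seen, the exact p-values were 0.15, 0.15 and 0.3. With these numbers of rats no ratio can reach 0.05, whatever its size.

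**Figure D2:**
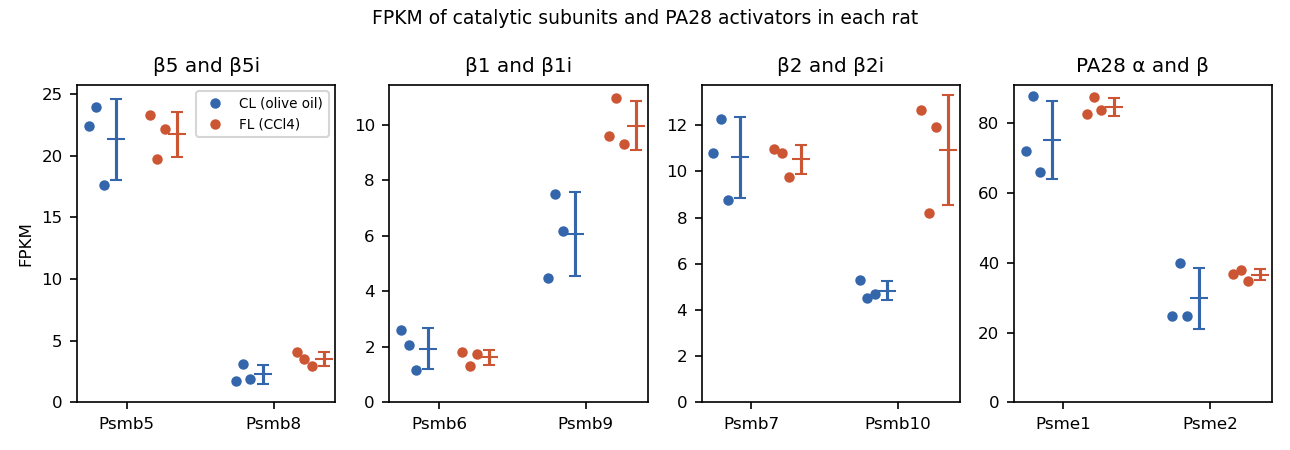
FPKM of the constitutive catalytic genes Psmb5, Psmb6 and Psmb7 beside their inducible partners Psmb8, Psmb9 and Psmb10, and of the PA28 genes Psme1 and Psme2, in each CL rat (blue) and FL rat (orange), with the mean and SD of 3 rats beside the points. The constitutive genes overlap between the groups, while all FL rats lie above all CL rats for Psmb9 and Psmb10.

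Of the other genes of the pathway, 9 proteasome genes without a Psm symbol were tested, and limma called 0 of them (16.9% of all genes higher and 1.94% lower), with 1 at an unadjusted p under 0.05 (35.5% of all genes). This was Shfm1, a small lid subunit named after its value was seen, with a log2 difference of 0.37 (adjusted p = 0.0775), or 0.14 with median scaling and 0.22 with quantile normalization. Pomp, the maturation factor of the core, was listed at 0.54, 0.15 and 0.42 FPKM in the CL rats and 0.14, 0.04 and 0.57 FPKM in the FL rats, too low for a reading (log2 difference -0.63, 95% interval -2.08 to 0.82). The median log2 difference of the 9 genes was 0.01.

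Nfe2l1, the factor that drives proteasome genes when the particle is short, was tested among 7 regulators and read 31.6, 29.5 and 24.8 FPKM in CL livers and 26.0, 30.3 and 28.7 FPKM in FL livers. The groups overlapped (log2 difference -0.01, 95% interval -0.31 to 0.29, and -0.23 and -0.14 with median scaling and quantile normalization). One of the 7 was called higher, against 16.9% of all genes, namely Mafk, a small Maf partner of such factors, which went from 4.43 ± 0.0513 to 6.60 ± 0.227 FPKM (SD, n = 3; log2 difference 0.56, adjusted p = 0.0146). That call was lost with median scaling (0.34), with quantile normalization (0.27), without CL7 (adjusted p = 0.0577) and without FL5 (adjusted p = 0.0569), while leaving out 1 rat kept the difference between 0.54 and 0.58, with a range of the adjusted p from 0.0101 to 0.158. Nfe2l2, the oxidative stress factor, had an unadjusted p under 0.05 and was added for this reason, with a log2 difference of 0.53 (adjusted p = 0.0987, and 0.0184 without FL2), or 0.31 with median scaling and 0.41 with quantile normalization.

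Of 12 ubiquitin genes and shuttles, 1 was called higher, Ubqln2, a shuttle that carries ubiquitinated proteins to the proteasome, with a log2 difference of 0.50 (adjusted p = 0.0329), and 0 lower, against 16.9% and 1.94% of all genes. The call was lost with median scaling (0.28), with quantile normalization (0.17) and without any 1 rat but FL2. Leaving out 1 rat kept the difference between 0.43 and 0.53, and over the alternatives the adjusted p ranged from 0.0234 to 0.488. The median of this list was 0.05, against 0.02 for the proteasome genes.

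Other large complexes are given beside 16.9% of all genes called higher, 1.94% lower and 35.5% at an unadjusted p under 0.05. The 8 genes of the CCT chaperonin had a median log2 difference of 0.28, near that of all genes. In limma 1 was called higher (Cct7, 0.53, adjusted p = 0.0379) and 0 lower, with 2 at an unadjusted p under 0.05, the further one being Cct2. The call of Cct7 was lost with median scaling (0.30), with quantile normalization (0.34) and without any 1 rat but FL2 (0.39 to 0.60). Over all alternatives its adjusted p ranged from 0.0346 to 0.160. Cytosolic ribosomal proteins had a median of 0.71, with 48 of 84 called higher and 0 lower. Whether the proteasome differs from these lists was not tested.

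Alb was the most abundant of 10 hepatocyte markers and none of them was at 0 in a rat. In bulk tissue, fewer cells of a type and less RNA per cell cannot be told apart. The 10 hepatocyte markers summed to 51535, 48851 and 50386 FPKM in the CL rats and to 40716, 41332 and 39879 FPKM in the FL rats. In limma 0 of them were called, against 16.9% of all genes higher and 1.94% lower. At an unadjusted p under 0.05 there were 3 of 10, against 35.5% of all genes. Neither count can show that the markers were unchanged, because limma can give the most abundant genes standard errors much larger than the rats alone would. For Alb, with all FL rats below all CL rats, the log2 difference was -0.38 and its standard error 0.98. All FL sums were below all CL sums, while the summed proteasome level overlapped. Alb, which makes up most of the sum, read 33392, 31431 and 31992 FPKM and then 24149, 25052 and 25209 FPKM. In the unscaled values the single markers went both ways, 6 above 0 and 4 below with a median log2 difference of 0.01. Of the 3 at an unadjusted p under 0.05, Tat (0.80) and Apoa1 (0.73) were higher and Apoc3 (-0.90) lower in the FL group. The others above 0 had small differences, Ahsg (0.16), Fgb (0.16), Serpina1 (0.03) and Cps1 (0.00). Scaled values of these markers are not given, and the sign of small differences can turn with the scaling.

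In the unscaled values, summed markers of other cells were mostly higher in the FL rats. Scaled sums are not given, and small differences between the sums can depend on the scaling. The 11 stellate cell and myofibroblast markers, led by Col3a1, summed to 82.9, 88.9 and 81.6 FPKM in the CL rats and 206, 550 and 502 FPKM in the FL rats. Of 10 tested, 6 were called higher, against 16.9% of all genes. Lrat alone was below 0 (log2 difference -0.07), with overlapping groups. Col1a2 was listed near 0 and failed the filter, for a reason that was not tested. Macrophage markers, 10 genes led by Gpnmb, summed to 130, 124 and 124 FPKM and to 354, 421 and 280 FPKM. Here 7 of 10 were called higher, against 16.9% of all genes. Clec4f alone was below 0 (log2 difference -0.02), with overlapping groups. The 9 lymphocyte markers, led by Ptprc, summed to 5.60, 5.36 and 5.85 FPKM and to 13.3, 16.6 and 11.7 FPKM. Of 8 tested, 2 were called higher, against 16.9% of all genes, while Ms4a1 was at 0 in a CL rat. Most of the rise of the sum was Ptprc, a gene of leukocytes in general, with 3.19, 3.25 and 3.12 FPKM and then 8.12, 10.2 and 8.72 FPKM. Of the others Cd2 (log2 difference 1.39) was called and Cd79a (0.96) had groups apart, while Cd3d (0.24), Cd3e (0.47), Cd8a (1.05), Cd79b (0.77) and Nkg7 (0.33) had overlapping groups. The sums of all 3 lists were apart between the groups.

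Cholangiocyte markers, 6 genes led by Spp1, summed to 5.75, 10.6 and 6.32 FPKM and to 12.7, 68.7 and 42.4 FPKM. Only 1 of 6 was called higher, against 16.9% of all genes. The rise of this sum was mostly that of Spp1, which read 0.37, 2.81 and 0.74 FPKM and then 7.34, 60.6 and 31.1 FPKM, and the other genes went both ways, with log2 differences of 1.46 (Cftr), 1.07 (Sox9), 0.33 (Epcam), -0.01 (Krt19) and -0.82 (Krt7). Endothelial markers, 5 genes led by Kdr, summed to 61.3, 63.3 and 55.8 FPKM and to 78.5, 69.0 and 75.0 FPKM. Of the 5, 2 were called higher (Stab2 and Vwf), against 16.9% of all genes. Kdr itself went the other way, with a log2 difference of -0.21 and overlapping groups. The 8 markers of cycling cells, led by Mki67, summed to 2.89, 5.42 and 3.48 FPKM and to 5.01, 22.3 and 19.1 FPKM, with FL2 within the CL range. Among the 8, 3 were called higher, against 16.9% of all genes. The part of these cell types in the levels of the proteasome genes was not tested.

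The libraries differed in how the reads were spread. FPKM summed over all genes to 309425, 340467 and 315259 in the CL rats and to 309226, 272350 and 272110 in the FL rats, and the 10 highest genes of each rat took 31.5%, 36.7% and 35.3% and then 25.6%, 23.9% and 23.6% of it. As a share of all FPKM, the proteasome genes came to 0.286%, 0.264% and 0.234% in the CL rats and 0.281%, 0.320% and 0.316% in the FL rats, with FL2 between CL5 and CL6. Whether the composition of the libraries moves the differences of the proteasome genes beyond what the scaled values show was not tested.

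The promoters of the proteasome genes were searched on both strands for TGACNNNGC, the core of the antioxidant response element that NFE2L1 and NFE2L2 bind, and for CCAAT, the box bound by NF-Y. RefSeq promoters of the GRCr8 build, from 250 bases before to 50 after the start of the gene, matched 38 of the 42 genes, not Psma7, Psmd6, Psmd12 and Psmd14. TGACNNNGC was found in 8 of 38 (21.1%), namely Psma3, Psmb2, Psmb5, Psmb6, Psmd1, Psmd3, Psmd9 and Psme4, and in 12.1% of 33469 promoters. CCAAT was found in 18 of 38 (47.4%) and in 37.5% of all. A match to these letters describes the sequence and is not a binding site.

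The 150 bases before the start are shown for the constitutive catalytic genes, whose levels overlapped between the groups, and for Psmb10, which rose. They lie at chr15:32047380-32047529 (Psmb5, minus strand), chr10:55737738-55737887 (Psmb6, plus strand), chr3:42827471-42827620 (Psmb7, minus strand) and chr19:50743293-50743442 (Psmb10, minus strand) of GRCr8, each written 5′ to 3′ on the strand of its gene. Capitals mark TGACNNNGC in Psmb5 and Psmb6, at -60 and -24 from the start, and CCAAT in Psmb7, and Psmb10 has neither in these bases.
Psmb5: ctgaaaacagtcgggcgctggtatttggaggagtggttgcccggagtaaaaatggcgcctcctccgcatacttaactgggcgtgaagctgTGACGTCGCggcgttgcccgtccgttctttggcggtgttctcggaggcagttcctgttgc
Psmb6: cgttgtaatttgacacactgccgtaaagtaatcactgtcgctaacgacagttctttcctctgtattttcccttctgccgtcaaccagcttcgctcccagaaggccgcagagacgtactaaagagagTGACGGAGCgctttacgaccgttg
Psmb7: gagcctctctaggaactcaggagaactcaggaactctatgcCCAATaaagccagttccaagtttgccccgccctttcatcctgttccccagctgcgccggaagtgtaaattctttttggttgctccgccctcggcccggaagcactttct
Psmb10: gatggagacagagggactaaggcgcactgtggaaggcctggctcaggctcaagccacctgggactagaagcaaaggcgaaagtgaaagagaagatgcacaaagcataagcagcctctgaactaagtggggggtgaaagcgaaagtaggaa

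Psmc3ip, which the symbol rule takes in, was the one matching row outside the proteasome. It read 0.76, 0.41 and 0.44 FPKM in CL rats and 0.73, 0.99 and 1.09 FPKM in FL rats. Its log2 difference was 0.73 (adjusted p = 0.117 in limma), or 0.53 with median scaling and 0.13 with quantile normalization. With Psmc3ip the counts become 0 of 43 at the adjusted and 5 of 43 at the unadjusted threshold.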

How the data were processed

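RNA-seq of liver tissue from 3 FL and 3 CL rats was analysed, with rats assigned to groups by their sample labels. The authors used FASTX-Toolkit for trimming and TopHat2 for alignment, kept uniquely mapped reads and deposited FPKM per rat, rounded to 2 decimals. The genome named in the paper is GRCH38, although the identifiers are Ensembl's for the rat. Another 2 columns of values, which match no sample, were not used. The authors' edgeR results were not used.

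FPKM are not counts, so log2(FPKM + 0.1) of genes averaging 0.1 FPKM or more was compared with limma (two-sided, prior variance following the mean, Benjamini-Hochberg adjustment over all 14864 genes). Fold changes on this scale understate those of low genes. The thresholds were an adjusted p under 0.05 and, as in the paper, also 2-fold. Ratios of partner genes were compared by exact permutation tests. The p-values of limma rest on the spread between rats, drawn toward that of genes with a similar mean level. For the most abundant genes, such as Alb, this can make the standard error much larger than the rats alone would give. Members, lists and tests were chosen with earlier results of these data known. Genes named with values were, in each role, the one with the highest mean and those with the largest and smallest difference, the activators, members under the filter, immunoproteasome genes, called genes of the other lists as well as Pomp and Nfe2l1. Some members of the other lists are not reported here. Exceptions are stated in the text.

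The settings varied were the pseudocount (1 or 0.01), the filter (none, a mean of 1 or, added after seeing the data, 10 FPKM), the scaling (median scaling over 9201 genes above 1 FPKM in every rat, or quantile normalization), the prior of limma (robust, or constant over the mean), and leaving out each rat. The procedure was tested on simulated data. The text of the paper gives a minimum number of clean reads but no mapped depth for each library, so no counting interval was given. Steps in the low values of U6 genes put relative depth at 1, 0.656 and 0.840 in CL rats 5, 6 and 7 and at 0.677, 0.750 and 0.677 in FL rats 2, 5 and 12. Promoters and named copies came from RefSeq (GRCr8). Software was limma 3.58.1 in R 4.3.3, and matplotlib 3.10.9, scipy 1.17.1, pandas 2.3.3 and numpy 2.4.6 in Python 3.11.15.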

Additional observations from a re-analysis of the deposited data

How the results depend on the processing

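The count of 0 proteasome genes called higher held under the pseudocounts, filters, scalings and priors tried, and leaving out 1 rat gave 0 to 2 (Psme2 without CL6, Psmg2 and Psmg3 without FL2). The count called lower was 0 under these, except 1 (Psmd11) after median scaling and 2 after quantile normalization (Psmd10 and Psmd11), and 0 without each rat. No alternative called one at 2-fold. The median log2 difference of the proteasome genes was -0.20 after median scaling, -0.14 after quantile normalization, and -0.066 (without CL7) to 0.080 (without CL5) with 1 rat left out. Median scaling divided the CL rats by 0.889 to 0.958 and the FL rats by 1.03 to 1.12. The cause of the other shifts was not tested. Depth limits genes near 0.1 FPKM most, such as Psma8. The cause of the low level of Pomp, 0.31 FPKM on average, was not tested.

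Above 0 were 23 of the 42 genes, against 6 with median scaling and 8 with quantile normalization. Among the genes named with values, signs turned with median scaling for Psmb1 (-0.11), Psmb5 (-0.19), Psmc2 (-0.21), Psmc3 (-0.15), Psmc4 (-0.073), Psmd2 (-0.11), Psmd13 (-0.087) and Psme1 (-0.046), and with quantile normalization for Psmb5 (-0.11), Psmc2 (-0.16), Psmc3 (-0.027), Psmd2 (-0.027), Psmd13 (-0.12) and Psmg2 (-0.030). Leaving out 1 rat gave ranges across 0 for Psmb1 (-0.058 to 0.20), Psmb5 (-0.094 to 0.13), Psmb6 (-0.50 to 0.058), Psmb7 (-0.13 to 0.11), Psmc2 (-0.14 to 0.11), Psmc3 (-0.0081 to 0.12), Psmd2 (-0.0066 to 0.21), Psmd13 (-0.0096 to 0.28), Psme4 (-0.074 to 0.067), Psmf1 (-0.11 to 0.048) and Nfe2l1 (-0.11 to 0.064). On 1 side of 0, but over 1.5 times from the main value, were Cct2 (0.20 to 0.43), Pomp (-1.3 to -0.12), Psma3 (-0.17 to -0.051), Psmc4 (0.028 to 0.23), Psmd1 (-0.20 to -0.063), Psmd8 (-0.16 to -0.067), Psmd9 (-0.49 to -0.21), Psmd10 (-0.30 to -0.050), Psmd14 (-0.24 to -0.098), Psme1 (0.089 to 0.29), Psme2 (0.22 to 0.56), Psmg1 (-0.13 to -0.025) and Psmg2 (0.20 to 0.61). The calls of Mafk, Ubqln2, Cct7 and Psmb9 were lost with both scalings. Those of Mafk were also lost without CL7 or FL5, those of Ubqln2 without any rat but FL2, those of Cct7 without trend and without any rat but FL2, and those of Psmb9 without the filter, without trend and without any rat but CL6. Psmb8 was called without CL6 and Nfe2l2 without FL2.

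Of all genes tested, 2518 were called higher and 288 lower, against 1301 and 533 after median scaling, 778 and 536 after quantile normalization, and 370 and 137 at a mean of at least 10 FPKM. Without 1 rat these counts ran from 938 (without CL7) to 3198 (without FL2) and from 121 (without CL6) to 338 (without FL2). At 2-fold, 1381 and 139 became 462 and 72 with a pseudocount of 1, 854 and 94 at a mean of at least 1 FPKM, 109 and 43 at 10 FPKM, 826 and 181 after median scaling and 453 and 231 after quantile normalization. Without 1 rat these ran from 740 (without CL7) to 1831 (without FL2) and from 81 (without CL6 or CL7) to 160 (without FL2). Genes under 10 FPKM on average have no value under that filter. No paired analysis was possible because the groups share 1 replicate number (5), which ties no rats together.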
